A study of Homo sapiens with 8 samples.

Results

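C/D box small nucleolar RNA genes were taken as the genes whose symbol is SNORD followed by a digit, with the clustered SNORD113 to SNORD116 repeats left out. The rule found 192 genes among the 63140 of the count table, and 122 repeat genes were set aside. At least 1 count in any library was present for 82 of the 192 genes, and 59 passed the filter on low counts and were tested. The 192 genes carry 177 distinct symbols, because 26 of them share a symbol with another gene identifier.

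The counts came from 8 libraries of RNA from ChIRP (chromatin isolation by RNA purification), in which fixed, sonicated lysate is incubated with biotinylated probes that are then pulled down on streptavidin beads. The labels do not name the RNA that the probes bind and list no input library, so a level below is an amount in a pull-down. By the sample titles the cells were MOLM13 and OCI-AML4, established acute myeloid leukaemia lines. They had been nucleofected with guide RNAs and sampled on day 3. Every group held 1 library labelled with each line. A line named below is the one in the title, and the identity of the cells was not tested. The AAVS1 KO group (genotype label WT) received Cas9 ribonucleoprotein with guides to AAVS1, a site used as an editing control, and the HOTSCRAMBL KO group received Cas9 ribonucleoprotein with guides to the long non-coding RNA HOTSCRAMBL. The AAVS1 CBE and HOTSCRAMBL CBE groups received guides to the same targets with a cytosine base editor, an enzyme that turns C into T with no break of both strands. All 4 groups were therefore nucleofected with an editor, and the labels list no untreated cells. No gene of the table carries the symbol HOTSCRAMBL, so the targeted transcript itself was not analysed here. Cutting or base editing was not measured in these libraries, and nothing in the labels says that edited cells were cloned or selected.

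C/D snoRNAs are short nucleolar RNAs that base-pair with a target RNA and bring the methyltransferase fibrillarin to a chosen ribose, and most of their targets lie in ribosomal RNA. They take their name from a C box near the 5′ end and a D box near the 3′ end, which fold together and bind the core proteins SNU13, NOP56, NOP58 and fibrillarin. Most human members are cut out of introns of other genes after splicing, many of them genes for ribosomal proteins or for the small nucleolar RNA host genes (SNHG), while the U3 RNA has promoters of its own. A smaller set, among them U3, U8, U13, U14 and U22, serves cleavage, folding or acetylation of pre-ribosomal RNA in place of, or beside, methylation.

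The sequences below belong to some of the members on which the comparisons turn, and were read from GENCODE v29 transcripts of GRCh38 at the positions of the count table. Capitals mark the C box as TGATGA and the D box as the CTGA nearest the 3′ end. SNORD17 (chr20:17962710-17962946, minus strand) lies in an intron of SNX5. SNORD12C (chr20:49278940-49279028, plus strand) lies in an intron of ZFAS1, and SNORD99 (chr1:28578749-28578822, minus strand) lies in an intron of SNHG12. SNORD111 (chr16:70538005-70538098, plus strand) lies in an intron of SF3B3. SNORD3A is a copy of U3, shown as the transcript SNORD3A-203 (chr17:19188016-19188232, plus strand), because the gene model used for counting was longer than the mature RNA.
SNORD17: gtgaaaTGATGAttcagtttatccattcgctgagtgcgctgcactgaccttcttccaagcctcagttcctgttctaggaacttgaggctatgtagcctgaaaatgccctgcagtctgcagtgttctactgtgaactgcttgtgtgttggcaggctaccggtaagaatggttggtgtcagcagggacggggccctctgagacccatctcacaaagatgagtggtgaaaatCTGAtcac
SNORD12C: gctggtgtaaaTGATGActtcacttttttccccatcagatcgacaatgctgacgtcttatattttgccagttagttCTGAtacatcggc
SNORD99: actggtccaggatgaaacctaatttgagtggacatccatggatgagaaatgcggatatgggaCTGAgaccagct
SNORD111: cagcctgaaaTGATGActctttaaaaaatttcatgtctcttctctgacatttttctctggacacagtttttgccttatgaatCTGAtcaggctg
SNORD3A: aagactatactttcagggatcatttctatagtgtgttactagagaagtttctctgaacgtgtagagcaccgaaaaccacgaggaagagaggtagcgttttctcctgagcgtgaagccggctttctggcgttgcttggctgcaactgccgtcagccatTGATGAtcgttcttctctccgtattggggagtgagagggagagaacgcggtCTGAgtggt

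In SNORD99 the letters TGATGA were not found, and its capitals show the D box alone. In SNORD3A the TGATGA shown starts at base 158 of 217 and the D box at base 209. Across all 192 members, TGATGA within the first 25 bases together with CTGA within the last 20 was present in 53.1% of the genes. The same pair stood in 2.10% of the 238 H/ACA and small Cajal body RNA genes with a sequence and in 0.0486% of 205650 other transcripts. Only the transcript strand carried it in the members, and the count on the opposite strand was 0%. A CTGA can share its last 3 letters with a TGATGA, but the windows searched lie at opposite ends. Both boxes were found in 56.1% of the members with a count and in 50.9% of those without one.

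Whether a C/D gene had any count followed the annotation around it. All bases of 81 members (42.2%) lie inside exons of another annotated gene, and none of these 81 had a single count in any library. Reads over more than 1 gene were left uncounted per the file headers, and the same holds for reads placed at several positions. Of the 96 members with no base in another gene's exons, 71 had a count and 53 were tested. Of the 15 with some such bases, 11 had a count and 6 were tested. A count of 0 for a member inside an exon is thus no measure of its RNA.

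**Figure D1:**
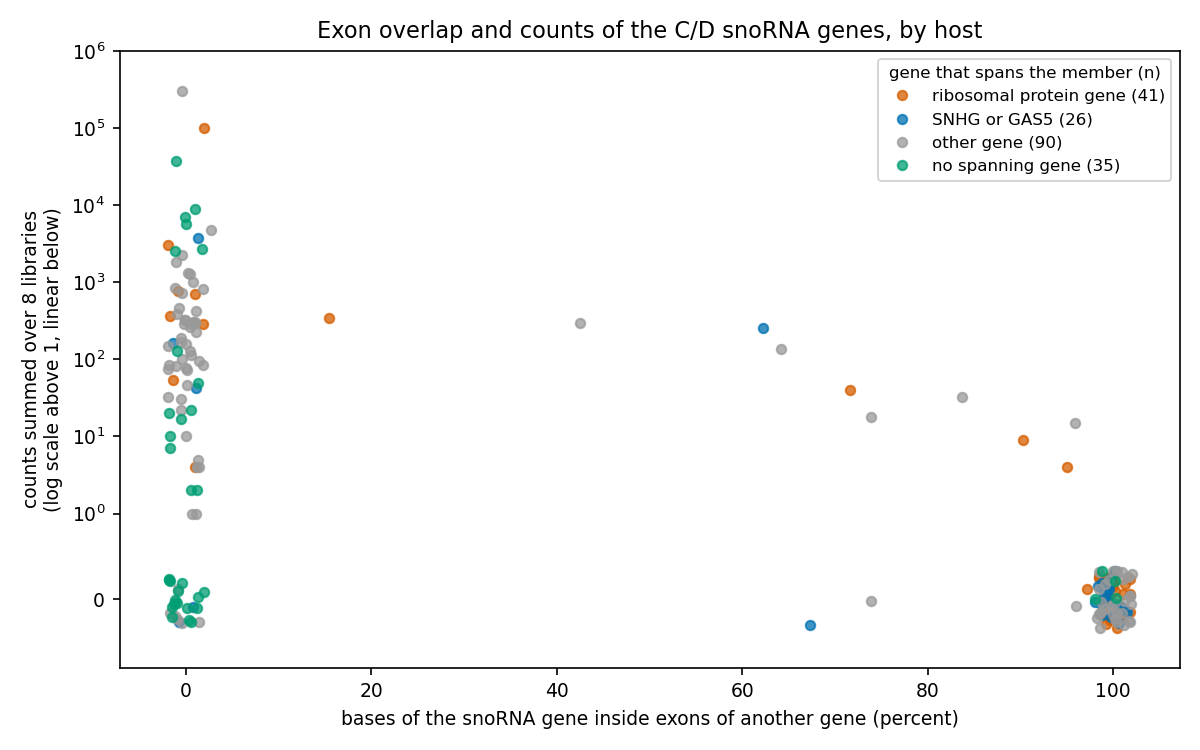
Total count over the 8 libraries (vertical axis, linear near 0 and logarithmic above) of the 192 C/D snoRNA genes against the percentage of their bases inside exons of another gene (horizontal axis), with points shifted slightly so that they do not hide each other. All 81 genes at 100% stand at a count of 0, while the highest total without overlap was 303408, that of SNORD17.

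This loss fell unevenly over host classes. Full cover by exons was found for 19 of 26 members in SNHG genes or GAS5 (73.1%), for 28 of 41 in ribosomal protein genes (68.3%), for 30 of 90 in other genes (33.3%), and for 4 of 35 with no gene spanning them (11.4%). Neighbours in the same host show the contrast. SNORD15A and SNORD15B both lie in RPS3, but 91.2% of SNORD15A falls in RPS3 exons and it had 9 counts in all, against 100666 for SNORD15B. SNORD12B has 96.7% of its bases in ZFAS1 exons and had 15 counts, against 2250 for SNORD12C in the same host. The members of the processing class were touched in the same way, since 13 of 21 were untested. Of those 13, 10 lie wholly in exons, among them SNORD118 (U8) in TMEM107, both SNORD22 (U22) entries in SNHG1, SNORD14B in RPS13 and SNORD14C and SNORD14D in HSPA8. The other 3 (SNORD14, SNORD3G and SNORD3H) have no such overlap and had no count.

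Length also separated the members that could be tested. Among the 96 without overlap, 19 of 22 genes of at least 100 nt were tested, against 34 of 74 shorter ones. Levels are given as CPM, counts scaled to a common library total. Divided by length, the tested members of both kinds had like median levels, 14.9 CPM per kilobase for the longer and 15.8 for the shorter. A short gene needs a higher level per kilobase to pass a filter on counts. The likeness is thus shaped by the filter and does not extend to untested members. The tested members had a median length of 86 nt, and those without a count a median of 74 nt.

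Total counts per library ran from 20548300 to 37970163, and 21945 to 26083 genes had a count. The share of counts on mitochondrial genes was 6.77% to 7.23% in the AAVS1 libraries and 10.2% to 11.9% in the HOTSCRAMBL libraries. Markers fitted the labelled myeloid cells: 8 myeloid genes summed to 1746 to 2411 CPM, while 4 T-cell markers summed to at most 2.34 CPM, 4 erythroid markers to 1.66 and 4 epithelial markers to 5.40, with CD3E, CD2 and HBB at 0. The 4 B-cell markers summed to 6.34 to 11.4 CPM. The myeloid sum was 2279 to 2411 CPM in HOTSCRAMBL KO, above the 1746 to 1931 of the other groups, and the epithelial sum was lower there (0.134 to 0.357 CPM). These quantities move with the comparisons below, and their part in the results was not tested. The labels do not say whether the libraries came from separate cultures, so p-values measure the spread between these libraries after the line difference was taken out.

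The C/D genes held 0.24% ± 0.0874 (SD, n = 2) of all counts in the AAVS1 KO libraries and 0.287% ± 0.0455 with HOTSCRAMBL KO. With base editing they held 0.254% ± 0.0818 in the AAVS1 libraries and 0.175% ± 0.0337 with HOTSCRAMBL. In library order MOLM13 then OCI-AML4, the shares were 0.179% and 0.302%, 0.255% and 0.320%, 0.196% and 0.311%, and 0.151% and 0.199%, and the library labelled OCI-AML4 was higher in each group. Within each line the share was higher in HOTSCRAMBL than in AAVS1 with KO and lower with base editing, although the group ranges overlapped. A two-sided exact permutation test within the 2 line pairs gave p = 0.5 for both editors, which is the smallest it can give, and 1 that ignores the line gave 0.667, where 0.333 is the smallest. The base editing direction turned without the highest member, SNORD17. The remaining members held 0.0743% of counts in AAVS1 and 0.129% in HOTSCRAMBL with KO, and 0.0800% and 0.0886% with base editing, where the MOLM13 pair went from 0.0622% to 0.0813% and the OCI-AML4 pair from 0.0977% to 0.0959%.

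A few members carried nearly all of these counts. SNORD17, a guide for 28S rRNA methylation, made up 68.2% to 69.5% of C/D counts in the 4 AAVS1 libraries and 46.1% to 59.5% in the 4 HOTSCRAMBL libraries. The 3 highest members together gave 84.8% to 90.7% in every library, and 58 to 66 members had a count. By mean level over the 8 libraries, 3 tested members stood above 100 CPM, 9 between 10 and 100, 26 between 1 and 10, and 21 under 1. The 10 highest were SNORD17, SNORD15B, SNORD3A, SNORD13, SNORD3B-1, SNORD3C, SNORD89, SNORD99, SNORD46 and SNORD104. Per kilobase of gene model, SNORD17 had 6117 CPM and SNORD15B 3329 CPM, followed by SNORD13 with 425, SNORD3A with 254 and SNORD99 with 246. The U3 models include bases outside the mature RNA, and reads that fit several copies were left out. Their level per kilobase is therefore no measure of the mature RNA.

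HOTSCRAMBL KO was first compared with AAVS1 KO, which addresses how C/D RNA in the pull-down changed when Cas9 ribonucleoprotein was aimed at the long non-coding RNA. Of the 59 tested members, 6 passed an adjusted p of 0.05 (10.2%), where 8.76% of all tested genes did. SNORD15B, SNORD13, SNORD12C, SNORD3C and SNORD99 were higher in HOTSCRAMBL KO and SNORD3B-1 was lower, while 4.51% of all tested genes were called higher and 4.25% lower. The tests throughout are edgeR quasi-likelihood tests with Benjamini-Hochberg adjustment over all 24057 tested genes, and fold changes are on the log2 scale. In bulk libraries of this kind, fewer cells with an RNA, less of it per cell and less of it retained on the beads cannot be told apart.

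SNORD15B, a guide for 28S rRNA methylation, stood at 193 CPM (MOLM13) and 415 CPM (OCI-AML4) in AAVS1 KO and at 558 and 969 CPM in HOTSCRAMBL KO. Both HOTSCRAMBL KO libraries were above both AAVS1 KO libraries, and within each group the library labelled OCI-AML4 was the higher. It rose by 1.36 ± 0.121 (SE) on the log2 scale, with an adjusted p of 6.13e-09 in edgeR. Without the term for the line the adjusted p was 0.317.

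SNORD13 (U13), which guides the acetylation of 18S rRNA together with NAT10 and lies at chr8:33513475-33513578 with no gene spanning it, stood at 19.0 and 37.5 CPM in AAVS1 KO. In HOTSCRAMBL KO it stood at 71.9 and 105.8 CPM. The groups did not overlap, and the higher library was again the one labelled OCI-AML4. The log2 change was 1.66 ± 0.244 with an edgeR adjusted p of 2.56e-05, and the call held in each of the 18 alternatives run, where the highest adjusted p was 0.0177. A related copy on chromosome 3, SNORD13P3, differs from it at 5 of 104 bases and had a log2 change of 2.77 with an edgeR adjusted p of 0.0968. SNORD13P3 was added for its likeness to U13 after its values were seen.

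SNORD12C and SNORD99 guide 28S rRNA methylation from introns of non-coding host genes. SNORD12C stood at 4.97 and 6.79 CPM in AAVS1 KO and at 20.7 and 24.9 CPM in HOTSCRAMBL KO, with no overlap of the groups. It rose by 1.96 ± 0.428 (edgeR adjusted p = 0.00289). The call was lost when the MOLM13 library of AAVS1 KO (adjusted p = 0.124), the OCI-AML4 library of AAVS1 KO (0.0586) or the OCI-AML4 library of HOTSCRAMBL KO (0.0797) was left out. SNORD99 stood at 9.95 and 13.7 CPM in AAVS1 KO and at 26.1 and 32.5 CPM in HOTSCRAMBL KO, again without overlap. It rose by 1.31 ± 0.349 (edgeR adjusted p = 0.0156), and leaving out any single library of the 4 gave an adjusted p between 0.119 and 0.208.

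**Figure D2:**
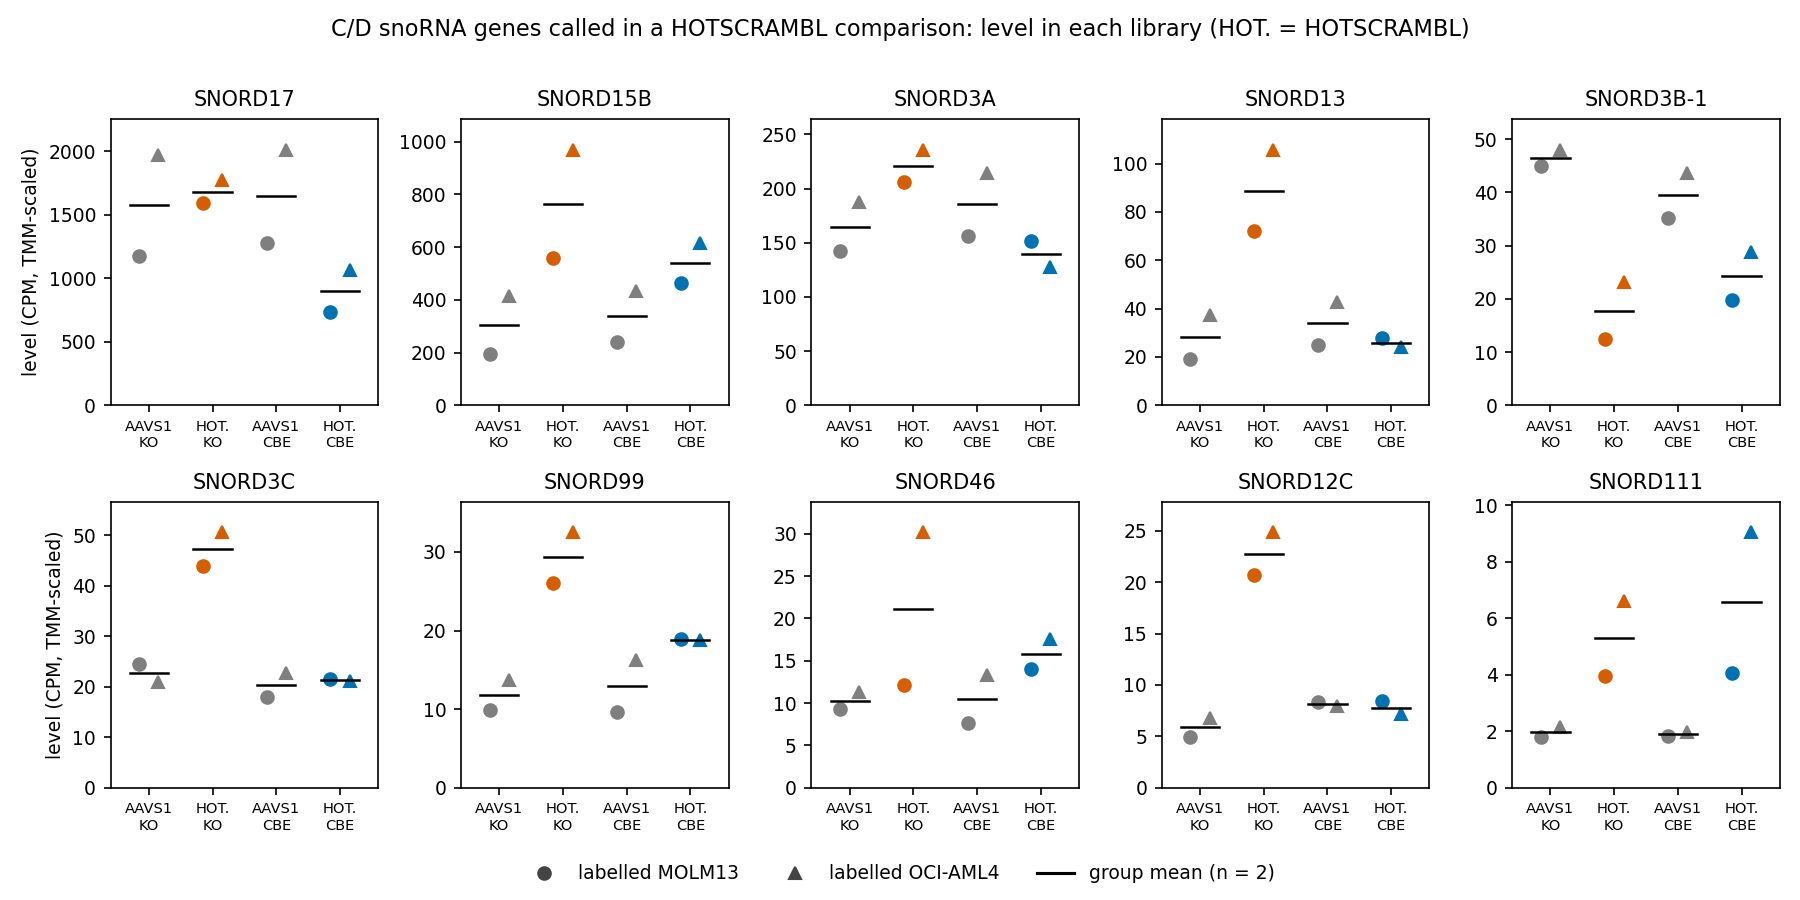
Level of 10 C/D snoRNA genes in each library, as CPM after TMM scaling, in 1 panel per gene. Dots are single libraries and horizontal lines are means of the 2 libraries of a group. SNORD15B, SNORD13, SNORD12C and SNORD99 lie higher in both HOTSCRAMBL KO libraries than in both AAVS1 KO libraries, and SNORD17 lies lowest in the HOTSCRAMBL CBE libraries.

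Genes of U3, the RNA needed for cleavage at the start of small-subunit processing, went both ways in the KO comparison. SNORD3B-1 stood at 45.0 and 48.0 CPM in AAVS1 KO and at 12.4 and 23.1 CPM in HOTSCRAMBL KO, without overlap. It fell by 1.38 ± 0.290 (edgeR adjusted p = 0.00204), and the call was lost without the MOLM13 library of AAVS1 KO (0.102) or of HOTSCRAMBL KO (0.0732). SNORD3C stood at 24.6 and 20.9 CPM in AAVS1 KO and at 44.0 and 50.6 CPM in HOTSCRAMBL KO, also without overlap. It rose by 1.06 ± 0.270 (edgeR adjusted p = 0.0109), and leaving out any single library of the 4 ended the call (adjusted p between 0.0752 and 0.244). Fitted on the 4 KO libraries alone, the adjusted p was 0.0701 for SNORD3B-1, 0.0905 for SNORD3C, 0.0521 for SNORD12C and 0.0889 for SNORD99.

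SNORD3A, the U3 gene with the most counts, stood at 142 and 187 CPM in AAVS1 KO and at 206 and 236 CPM in HOTSCRAMBL KO. Its difference of 0.43 ± 0.148 did not pass (edgeR adjusted p = 0.0745). SNORD3B-2 differed by -0.11 (adjusted p = 0.921). These copies are nearly alike over the 217 bases of the mature RNA: SNORD3A differs from SNORD3B-1, SNORD3B-2 and SNORD3C at 1 base each, SNORD3B-1 and SNORD3B-2 do not differ, and SNORD3C differs from both at 2. Reads that fit several positions were left out of the counts, so the split between copies is uncertain. Reads wholly inside these 217 bases cannot tell SNORD3B-1 from SNORD3B-2. Their counts thus need a read or its mate that reaches bases outside the mature RNA. The changes of SNORD3B-1 and SNORD3B-2 are therefore no measure of mature U3. Within the mature RNA, SNORD3A and SNORD3C differ from another of these copies at only 1 or 2 bases. How far their changes are those of mature U3 was not tested.

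Most other members had a positive change with KO that did not pass. Of all 59 tested, 42 (71.2%) had a positive log2 change, against 49.2% of all tested genes, and their median was 0.72 against -0.01. Both line-labelled pairs moved up in 30 members (50.8%) and both moved down in 10 (16.9%), where the shares over all tested genes were 26.9% and 30.6%. At an unadjusted p under 0.05 there were 13 members (22%), against 20.1% of all tested genes. Without the OCI-AML4 library of HOTSCRAMBL KO the members' median was 0.45, with that of all tested genes at -0.19. SNORD89, which has no known ribosomal target, stood at 13.9 and 22.4 CPM in AAVS1 KO and at 18.6 and 39.2 CPM in HOTSCRAMBL KO, higher within each line but with overlapping groups. Among the 10 highest members, SNORD46 differed by 1.05 (adjusted p = 0.113), SNORD89 by 0.67 (0.259), SNORD104 by 0.38 (0.652) and SNORD17 by 0.14 (0.462) in the edgeR fit.

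With the cytosine base editor, 2 of the 59 members passed the same test (3.39%, against 8.83% of all tested genes, 4.56% higher and 4.27% lower), and SNORD15B was the 1 gene called with both editors. SNORD15B stood at 242 and 433 CPM in AAVS1 CBE and at 463 and 616 CPM in HOTSCRAMBL CBE. Both HOTSCRAMBL CBE values were above both AAVS1 CBE values, and the nearest pair was the MOLM13 library of the first group and the OCI-AML4 library of the second. It rose by 0.73 ± 0.118 (edgeR adjusted p = 9.95e-05), and without the MOLM13 library of HOTSCRAMBL CBE the change was 0.48 with an adjusted p of 0.0652. Without the term for the line the adjusted p was 0.600, and on the 4 CBE libraries alone it was 0.0518.

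SNORD17 was lower with base editing. It stood at 1277 and 2013 CPM in AAVS1 CBE and at 731 and 1064 CPM in HOTSCRAMBL CBE, so that the groups did not overlap. It fell by 0.86 ± 0.10 (edgeR adjusted p = 8.29e-07). The limma-voom test gave an adjusted p of 0.132, and the fit without the line term gave 0.329. In the KO libraries SNORD17 stood at 1175 and 1974 CPM with AAVS1 and at 1589 and 1775 CPM with HOTSCRAMBL, where the first range held both values of the second.

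The other members called with KO did not pass with base editing. SNORD13 stood at 25.1 and 42.6 CPM in AAVS1 CBE and at 27.8 and 24.0 CPM in HOTSCRAMBL CBE, overlapping groups with a log2 difference of -0.31 (edgeR adjusted p = 0.573). SNORD12C stood at 8.33 and 7.94 CPM and at 8.45 and 7.16 CPM, with a difference of -0.04 (edgeR adjusted p = 0.978). SNORD3C differed by 0.09 (0.909), SNORD99 by 0.59 (0.343) and SNORD3B-1 by -0.71 (0.0814), and these 3 had the sign they had with KO. Across the 59 members 37 (62.7%) had a positive change, against 49.0% of all tested genes. The members' median was 0.43, against -0.02 over all tested genes. Without the MOLM13 library of HOTSCRAMBL CBE that median was -0.03 over the 67 members then tested, and without the MOLM13 library of AAVS1 CBE it was 0.12. Both line-labelled pairs moved up in 17 members (28.8%) and down in 13 (22%), near the 29.2% and 30.5% of all tested genes.

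**Figure D3:**
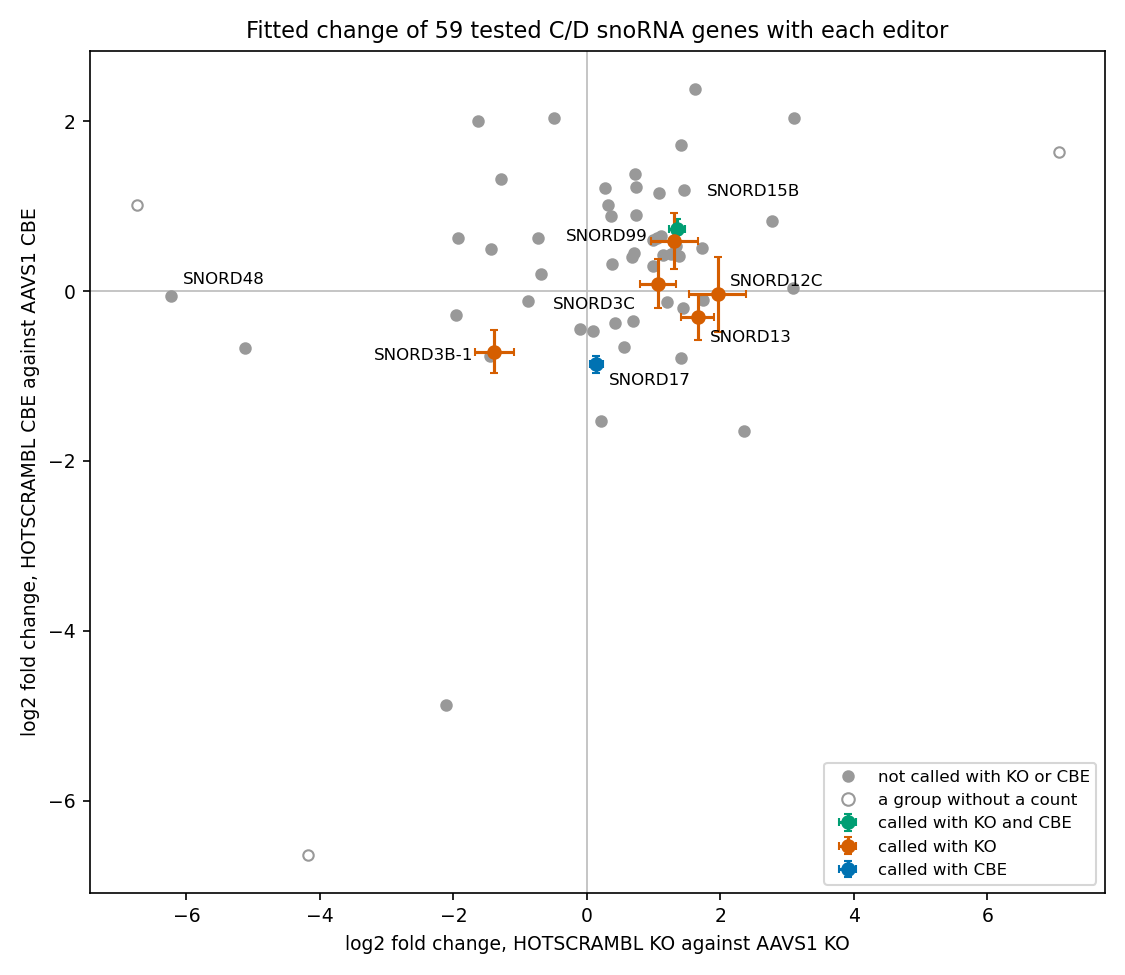
Fitted log2 fold change of HOTSCRAMBL against AAVS1 with KO (horizontal axis) and with CBE (vertical axis) for the 59 tested C/D snoRNA genes, with standard errors for genes past an adjusted p of 0.05. Open circles are genes with a group without any count, whose fitted value is no bound. SNORD15B is positive on both axes, while SNORD13 and SNORD12C lie to the right near 0 on the vertical axis and SNORD17 lies below 0 near the vertical midline.

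The difference between the editors was tested directly, as the KO change minus the CBE change. It passed for 4 members (6.78%), where 3.19% of all tested genes passed, and all 4 differences were positive, as were those of 1.74% of all tested genes, with 1.45% negative. The largest was that of SNORD13, 1.97 ± 0.362 (edgeR adjusted p = 0.00148), followed by SNORD17 with 1.01 ± 0.141 (5.10e-05), SNORD3A with 0.80 ± 0.207 (0.0284) and SNORD15B with 0.63 ± 0.168 (0.0360). SNORD3A stood at 156 and 215 CPM in AAVS1 CBE and at 151 and 128 CPM in HOTSCRAMBL CBE, so its KO and CBE changes (0.43 and -0.37) had opposite signs and neither passed alone. SNORD15B rose with both editors, and its difference is one of size. For SNORD12C the difference of 2.00 did not pass (0.0902).

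The calls of these differences were lost when some single libraries were left out, while the differences stayed positive. For SNORD13 the adjusted p was 0.0635 without the MOLM13 library of AAVS1 KO, 0.0668 without the OCI-AML4 library of AAVS1 CBE and 0.0656 without that of HOTSCRAMBL CBE, with differences of 1.77, 1.82 and 1.54. For SNORD3A and SNORD15B, among the 8 omissions of 1 library, the call was kept only without the MOLM13 library of HOTSCRAMBL CBE. The other 7 gave adjusted p-values of 0.0699 to 0.332 and of 0.0570 to 0.452, and the fit without the line term gave 0.0771 and 0.811. In those 7 fits the difference was 0.52 to 0.98 for SNORD3A and 0.39 to 0.88 for SNORD15B. For SNORD17 it was lost with limma-voom (0.285) and without the line term (0.549), and kept whichever library was left out.

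Averaged over both editors, 8 members passed (13.6%, against 12.3% of all tested genes), 6 higher and 2 lower, where 5.79% of all tested genes were higher and 6.51% lower. SNORD15B rose by 1.04 ± 0.0842 (edgeR adjusted p = 6.55e-10), and SNORD3B-1 fell by 1.05 ± 0.192 (3.05e-04), a call kept in every alternative. SNORD17 fell by 0.36 ± 0.0706 (6.67e-04), although its KO value alone was positive. SNORD99 rose by 0.95 (0.00778), SNORD13 by 0.68 (0.0124) and SNORD12C by 0.96 (0.0444).

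The 2 further members called on average were SNORD111 and SNORD46, both guides for 28S rRNA methylation. SNORD111 stood at 1.80 and 2.16 CPM in AAVS1 KO and 3.97 and 6.61 CPM in HOTSCRAMBL KO. With base editing it stood at 1.83 and 1.98 CPM and at 4.07 and 9.05 CPM, so the 4 HOTSCRAMBL libraries were all above the 4 AAVS1 libraries. It rose by 1.57 ± 0.499 (edgeR adjusted p = 0.0371), and leaving out any single library of the 8 gave an adjusted p of 0.0727 to 0.228. SNORD46 stood at 9.24 and 11.3, and 12.1 and 30.2 CPM with KO, and at 7.61 and 13.3, and 14 and 17.6 CPM with base editing. It was higher in HOTSCRAMBL within each line and editor and rose by 0.84 ± 0.273 (edgeR adjusted p = 0.0430), a call lost under 10 of 17 alternatives. Of the 8 libraries, only leaving out the MOLM13 library of HOTSCRAMBL KO kept it, and the other omissions gave adjusted p-values of 0.0772 to 0.417.

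The average calls of other members were also lost without some single libraries. SNORD12C lost its call under 12 of 17 alternatives, with an edgeR adjusted p of 0.0763 to 0.310 when any single library was left out. For SNORD13 the adjusted p was 0.158 without the MOLM13 library of AAVS1 KO and 0.0608 without that of HOTSCRAMBL KO. It was 0.108 without the OCI-AML4 library of HOTSCRAMBL KO, 0.114 without the MOLM13 library of AAVS1 CBE and 0.322 without that of HOTSCRAMBL CBE. For SNORD99 it was 0.0700 and 0.0555 without the MOLM13 or OCI-AML4 library of AAVS1 KO, 0.0548 without the OCI-AML4 library of HOTSCRAMBL KO, and 0.0808 and 0.119 without the MOLM13 library of AAVS1 CBE or HOTSCRAMBL CBE. For SNORD17 it was 0.0600 without the OCI-AML4 library of AAVS1 KO, 0.106 with DESeq2, 0.193 with limma-voom and 0.503 without the line term, and for SNORD15B the last fit gave 0.249. For SNORD13 total count scaling gave 0.0538.

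The other tested processing RNAs were 2 U14 genes and the remaining U3 copies. U14 both guides 18S rRNA methylation and takes part in 18S processing. SNORD14E, in HSPA8, stood at 6.89 and 4.08 CPM with AAVS1 KO and 1.48 and 2.95 CPM with HOTSCRAMBL KO. With base editing it stood at 2.52 and 3.49 CPM for AAVS1 and 7.42 and 7.44 CPM for HOTSCRAMBL. Its groups did not overlap with either editor, lower with KO (-1.28, edgeR adjusted p = 0.368) and higher with base editing (1.32, 0.177), and neither change nor their difference of -2.60 (0.161) passed. SNORD14A, in RPS13, stood at 1.33 and 1.60 CPM in AAVS1 KO and 3.52 and 4.15 CPM in HOTSCRAMBL KO, a difference of 1.39 that did not pass (0.383). SNORD3J had 2 and 22 counts in AAVS1 KO and 0 in both HOTSCRAMBL KO libraries, so that nearly all its control counts came from the library labelled OCI-AML4, and with base editing all 4 libraries had counts.

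Among members with few counts, several were present in 1 group and nearly missing in the other. SNORD48 (U48), a 28S guide often used as a reference in quantitative PCR, had 51 and 56 counts in AAVS1 KO and 0 and 1 in HOTSCRAMBL KO, while with base editing it had 35 and 39 against 37 and 33. The KO ratio of levels was 0.0112, with a 95% counting interval of 0.000282 to 0.064. The edgeR adjusted p was 0.136 and the DESeq2 adjusted p was 0.00198, and 60.9% of its bases lie in exons of another gene. SNORD51 had 45 and 4 counts in AAVS1 KO and 0 and 1 in HOTSCRAMBL KO, a ratio of 0.0246 (0.000609 to 0.143). In SNORD51, 65% of the bases lie in exons of another gene. SNORD51 and the genes named next were chosen after their values were seen.

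Other sparse members went in either direction. SNORD124 had 38 and 30 counts in the AAVS1 CBE libraries and 0 and 2 with HOTSCRAMBL CBE, a ratio of 0.0295 (0.0035 to 0.111). SNORD98 had 14 and 14 counts in AAVS1 CBE and 0 in HOTSCRAMBL CBE, and 85.1% of its bases lie in exons of another gene. SNORD11B, in an intron of NOP58, had 0 counts in AAVS1 KO and 20 and 6 in HOTSCRAMBL KO. None of these passed the edgeR test. The counting intervals treat every read as independent, although both mates of a pair were counted and the reads carried no molecular identifiers, so they are too narrow.

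Host genes were read beside their members, since an intronic snoRNA and its host share a primary transcript. A tested host was available for 51 members, in 40 host genes. Member and host had the same sign of change for 25 of 51 with KO and 27 of 51 with base editing, and across these members the 2 log2 changes correlated with a Pearson r of -0.103 and 0.0598. Members of 1 host share their host's value, so these are descriptions. With KO, 15 of the 51 members had a called host and 3 were called themselves, where 8.76% of all tested genes were called. Of the 3, 1 (SNORD15B) moved the same way as a called host. A host with several members was counted once for each. With base editing the numbers were 17, 2 and 1, the last again SNORD15B, where 8.83% of all tested genes were called.

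Members in ribosomal protein genes were 8 in number among those tested, and their hosts, among them RPS3, RPS12, RPS13, RPL3 and RPL37, rose with both editors in the edgeR fit. RPS3, the host of SNORD15B, rose by 1.57 with KO (adjusted p = 1.97e-11) and by 1.62 with base editing (2.47e-11), while SNORD15B rose by 1.36 and 0.73. With KO, 7 of the 8 members had a positive change, with a median of 1.15, and with base editing 5 of 8, with a median of 0.43. SNORD83A was the exception with KO, at -1.45 (adjusted p = 0.280) while its host RPL3 rose by 1.36.

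The other called members moved without a called host. SNHG12 differed by -0.08 with KO (edgeR adjusted p = 0.859) while SNORD99 rose by 1.31. ZFAS1 differed by 0.38 (0.531) while SNORD12C rose by 1.96. With base editing SNX5 differed by 0.03 (0.930) while SNORD17 fell by 0.86, and with KO SNX5 missed the threshold at -0.41 (0.050) while SNORD17 differed by 0.14. SF3B3 differed by -0.22 (0.397) with KO and by 0.05 with base editing, beside SNORD111. The difference between member and host was not tested. The 40 tested members in other genes had medians of 0.73 and 0.51, and the 8 without a spanning gene had 0.14 and -0.11, with KO and base editing.

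**Figure D4:**
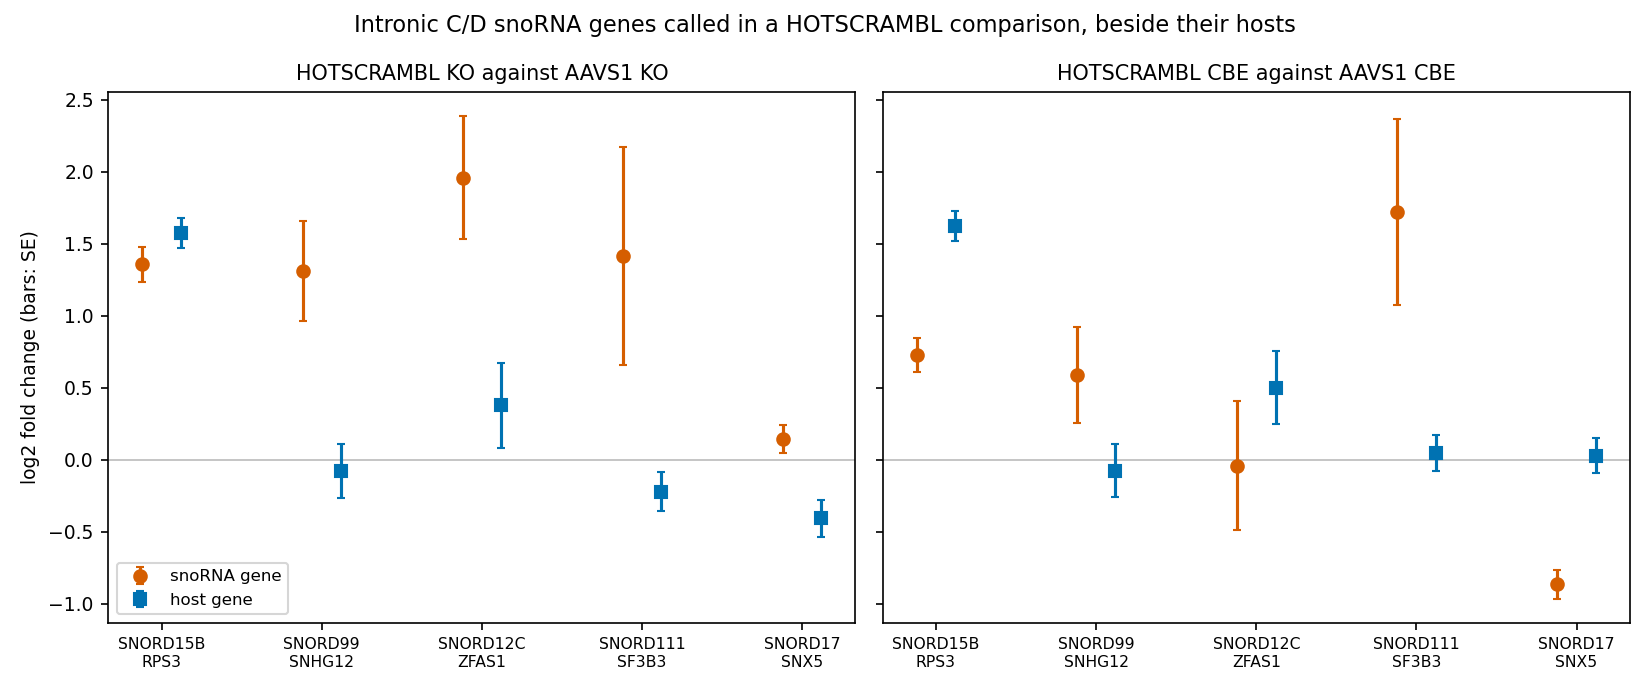
Log2 fold change of HOTSCRAMBL against AAVS1 for 5 intronic C/D snoRNA genes and for their host genes, with KO and with CBE. Bars are standard errors derived from the F statistic of the edgeR test. RPS3 rose together with SNORD15B with both editors, while SNHG12, ZFAS1, SF3B3 and SNX5 lie closer to 0 than SNORD99, SNORD12C and SNORD111 with KO or SNORD17 with CBE.

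The AAVS1 controls of the 2 editors were then compared with each other. Of the 59 members, 0 passed in edgeR (0% of all tested genes passed), 0 were at an unadjusted p under 0.05, and DESeq2 called 0. The members with the smallest p-values were SNORD94 (-0.92), a guide for U6 small nuclear RNA, and SNORD15B (-0.17) among those lower in AAVS1 KO, and SNORD14E (0.89) and SNORD101 (1.05) among those higher, each with an adjusted p of 0.991. For the members with the most counts, SNORD17 and SNORD15B, the control difference was -0.07 ± 0.0989 and -0.17 ± 0.122 (SE), from 2 libraries a group.

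Few genes differed between the line labels, 119 of 24057 tested, where 2108 were called between HOTSCRAMBL KO and AAVS1 KO. Whether the labels name different lines was not tested. A pair of members differed between the labels. With MOLM13 set against OCI-AML4 over all 4 groups, SNORD15B was lower by a log2 value of -0.77 ± 0.0841 (edgeR adjusted p = 5.42e-06) and SNORD17 by -0.53 ± 0.0707 (8.14e-05), 3.39% of members against 0.495% of all tested genes, of which 0.258% lower. SNORD15B kept this call in every alternative, whereas SNORD17 lost it without the MOLM13 (0.0681) or OCI-AML4 (0.0699) library of AAVS1 KO and with limma-voom (0.443). Of the 59 members 47 were lower in MOLM13 and 20.3% were higher, where 48.8% of all tested genes were higher. In all 4 groups 12 members (20.3%) were lower, against 7.64% of all tested genes. The 2 members highest on the MOLM13 side by p, SNORD3B-2 (0.38, adjusted p = 0.736) and SNORD69 (2.03, 0.697), did not pass. The HOTSCRAMBL change itself differed between the lines for 0 members in edgeR and in DESeq2 (0% of all tested genes), with 4 at an unadjusted p under 0.05 (6.78%, against 4.09% of all tested genes).

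Protein partners of C/D RNAs were read as mRNAs in the same libraries, from a list of 23 tested genes of the core, the assembly factors, the maturation factors and the U3 particle. With KO 3 were called higher and 1 lower, where 4.51% and 4.25% of all tested genes were, and with base editing 4 higher and 1 lower, where 4.56% and 4.27% were. ZNHIT6 (BCD1), an assembly factor of C/D particles, stood at 285 and 267 CPM in AAVS1 KO and 426 and 463 CPM in HOTSCRAMBL KO, and at 243 and 300 against 465 and 480 CPM with base editing. Neither comparison overlapped. ZNHIT6 rose by 0.69 ± 0.111 (edgeR adjusted p = 1.03e-04) and by 0.81 ± 0.108 (7.86e-06), and both calls held in every alternative.

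The core proteins went in different directions. FBL (fibrillarin) rose by 0.60 with KO (edgeR adjusted p = 0.0413) and by 1.05 with base editing (1.81e-04). With KO it stood at 83.2 and 87.4 CPM in AAVS1 and at 90.2 and 174 CPM in HOTSCRAMBL, where the OCI-AML4 library was the higher, and without that library the change was 0.25 (0.687). Its KO call was lost without any library except the MOLM13 library of HOTSCRAMBL KO (adjusted p of 0.0789 to 0.687), and its base editing call was lost without the MOLM13 library of AAVS1 CBE (0.0696) or HOTSCRAMBL CBE (0.0763). NOP56 fell by 0.55 (0.00102) and 0.36 (0.0278), from 558 and 460 CPM to 340 and 349 CPM with KO. NOP58 rose with base editing alone, by 0.57 (0.00907), against 0.03 with KO (0.938), and the difference between editors was not called for any gene of this list.

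Of the other assembly factors, 1 was called with each editor. NOPCHAP1, which bridges NOP58 and the assembly machinery, rose by 0.84 with KO (edgeR adjusted p = 0.0423). RUVBL1, an ATPase of the R2TP assembly complex, rose by 0.85 with base editing (0.0139). On average over editors PIH1D1, another R2TP subunit, fell by 0.40 (0.0202). Most calls of this list were lost without some single libraries. Left out in turn, the libraries of the comparison gave adjusted p-values of 0.0752 to 0.202 for NOP58 and of 0.114 to 0.286 for RUVBL1 with base editing, each above the threshold for all 4. For NOPCHAP1 every omission but that of the OCI-AML4 library of HOTSCRAMBL KO ended the call (0.0670 to 0.713). NOP56 with KO lost its call without either AAVS1 KO library (0.101 and 0.0506) or the MOLM13 library of HOTSCRAMBL KO (0.112), and with base editing without any AAVS1 or CBE library (0.0843 to 0.359). PIH1D1 lost it without any library except the MOLM13 library of HOTSCRAMBL KO and the OCI-AML4 library of HOTSCRAMBL CBE (0.0866 to 0.145).

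H/ACA box snoRNA and small Cajal body RNA genes, the class most like the C/D genes, were counted in the same way for comparison. Of 88 tested, 13 were called higher and 1 lower with KO (15.9% in all) beside 10.2% of the C/D members and 8.76% of all tested genes, and their median change was 0.45 beside 0.72. With base editing 7 were called (7.95%, beside 8.83% of all tested genes), 3 higher and 4 lower, and the median was 0.24 beside 0.43. The difference between the classes was not tested. Full cover by exons of another gene was found for 30.1% of the 239 H/ACA and small Cajal body genes, below the 42.2% of the C/D genes.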

How the data were processed

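RNA from ChIRP pull-downs of 8 libraries was analysed, with groups taken from the sample titles as 4 groups of 2 libraries. The authors deposited raw gene counts in whole numbers. These came, per the file headers, from featureCounts 2.0.6 with the Ensembl 112 annotation of GRCh38, with no strand option, without reads placed at several positions or over several genes, and with both mates of a pair counted separately. Without strand, reads of an antisense gene cannot be told from those of its partner. Of 192 member values from 1 to 20, 74.5% were even. The aligner, adapter trimming and any removal of duplicates are not given in the sources used here. Records of 2 genes broken over several lines were rejoined, symbols were matched for 62541 of 63140 identifiers (99.05%), and 0 columns of other samples were present.

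The tests used edgeR 4.0.16 under R 4.3.3 (robust quasi-likelihood F-test, TMM scaling). The filterByExpr filter with a minimum count of 10 kept 24057 genes. The model had 4 group terms and a term for the labelled line, leaving 3 residual degrees of freedom. Adjustment followed Benjamini-Hochberg with a threshold of 0.05. CPM values are TMM-scaled. The edgeR test gives no standard error. Each SE of a log2 change was derived as its absolute value divided by the square root of the F statistic. The pairing by replicate number comes from the stated cell line, and deviations of same-numbered libraries correlated across tested genes with r of 0.00851 to 0.0245. Libraries of 1 group differed by 35.7 to 42.8 in chi-square per degree of freedom, far above counting noise, and none was treated as a repeat.

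Alternatives were other scalings, other count filters, halved counts, DESeq2 1.42.0, limma-voom (limma 3.58.1), no line term, the 4 libraries of a comparison alone, each library left out in turn and, chosen after seeing the data, an older form of the edgeR dispersion. Scripts were tested on simulated data. Members, lists and hosts were chosen with earlier results of these data known. Members named are, per comparison and direction, the 6 with the smallest p among those called (or 2 where fewer than 2 passed), the 10 with the highest mean level and every tested processing RNA; hosts are named beside members. Of the protein partner list every called gene is named. Sequences came from GENCODE v29 (GRCh38), and 186 of 192 members had the coordinates of the count table. A few items, and the results that need them, are not reported here. Intervals (95%) describe counting error alone, and count both mates of a pair.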

Additional observations from a re-analysis of the deposited data

Results flagged for a closer look

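For 4 C/D snoRNA genes the change of HOTSCRAMBL against AAVS1 differed between the editors by a test of the difference itself, given here as the KO change minus the CBE change on the log2 scale in edgeR. SNORD13 had the largest difference, 1.97 (adjusted p = 0.00148), with a rise with KO and overlapping groups with base editing. SNORD17 had 1.01 (5.10e-05), with a fall with base editing and no called change with KO. SNORD3A had 0.80 (0.0284), from values of opposite sign of which neither passed alone, and the split of reads between the U3 copies is uncertain. SNORD15B had 0.63 (0.0360), from a rise with both editors. All 4 calls were lost under some of the alternatives, as given above.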

How the results depend on the processing

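No result changed direction where it was called. The counts below are given without the share of all tested genes called under the same alternative. They describe the calls alone and are no result about the C/D genes as a class. The number of tested members also changed. It was 59 in the main fit and with DESeq2. With only the 4 libraries it was 49 for KO and 54 for base editing. The count of C/D genes called with KO was 6, and it was 13 with DESeq2, 2 with only the 4 libraries of the comparison, 2 to 3 without single KO libraries and 6 without single CBE libraries. With base editing the count of 2 became 4 with total count scaling, 4 with DESeq2, 1 with limma-voom and 1 with the 4 libraries alone. On average over editors the count of 8 became 4 with total count scaling, 5 with limma-voom, 5 with the older dispersion and 3 to 5 without single libraries. For the difference between editors the count of 4 became 8 with DESeq2 and 1 to 2 without single libraries, except that it stayed 4 without the MOLM13 library of HOTSCRAMBL CBE. For the line the count of 2 became 1 with limma-voom and 1 without either AAVS1 KO library, and was 2 without any other. Without the replicate block, which is the term for the line, the pairing was ignored and the counts were 5 with KO, 0 with base editing, 4 on average and 1 for the editor difference. Counts of 0 for the controls and for the line by target stayed at 0. Without its highest member the C/D share of counts was 0.0743% (AAVS1) and 0.129% (HOTSCRAMBL) with KO and 0.0800% and 0.0886% with base editing, and the H/ACA share went from 0.369% and 0.458%, and 0.378% and 0.248%, to 0.200% and 0.241%, and 0.203% and 0.150%. Of counts off the mitochondrial genome, the H/ACA share in the same order was 0.396% and 0.517%, and 0.407% and 0.278%. The smaller fits also had fewer samples, and the cause of these shifts was not tested.

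Of 22 calls of members over all comparisons, 3 were kept under every alternative: SNORD13 with KO, SNORD3B-1 on average and SNORD15B between lines. Total count scaling moved the median of all tested genes to -0.17 with KO, -0.15 with base editing and -0.18 on average, and the members' medians to 0.56 and 0.29 with the editors. Where 1 library of a group was left out, the lone library was assumed to vary like the other groups. Members under 1 CPM number 21 of the 59 tested.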
